A study of Homo sapiens with 6 samples.

Results

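Of the 26485 genes counted in THP1 cells exposed to withaferin A (WFA), 10 are examined here. They were chosen by symbol as detoxifying reductases and related enzymes, together with efflux pumps of the ABCC family, and all 10 were found in the table. The enzymes are the aldo-keto reductases AKR1B1, AKR1C1, AKR1C2 and AKR1C3, the carbonyl reductase CBR1, the microsomal epoxide hydrolase EPHX1 and the UDP-glucose dehydrogenase UGDH. The pumps are ABCC1, ABCC3 and ABCC4. THP1 is a human acute monocytic leukemia cell line, and WFA is a steroidal lactone of the plant Withania somnifera. RNA was sequenced after 6 h with WFA or with its vehicle DMSO, in 3 independent experiments that gave 6 libraries, 3 per group. The sample labels give the WFA dose as 1 mM, whereas the methods of the study give 1 μM. All libraries come from 1 cell line in culture, with no other cell line or dose among them.

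Detoxification proceeds in steps. Reductases and hydrolases first act on reactive carbonyls, quinones and epoxides, transferases then attach glutathione or glucuronic acid to the products, and pumps of the ABCC family carry these conjugates out of the cell. Several of the genes involved are textbook targets of NRF2, a transcription factor that is released from its inhibitor KEAP1 when cysteines of KEAP1 are modified, and that binds antioxidant response elements. CBR1 and the aldo-keto reductases are also known in leukemia because they reduce anthracyclines such as daunorubicin to less active alcohols.

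EPHX1 and ABCC3 rose about 4-fold with WFA, ABCC1, UGDH and CBR1 rose between 1.5-fold and 1.78-fold, and AKR1B1 rose by 1.20-fold. ABCC4 was the only one of the tested genes with a lower mean after WFA, and it did not pass the test. AKR1C1, AKR1C2 and AKR1C3 were near the limit of detection in both groups and were not tested. Of the 10 genes 7 were thus tested. Of these 7, 6 passed the quasi-likelihood test of edgeR in the upward direction (adjusted p under 0.05) and 0 in the downward direction. DESeq2 called 0 of them lower as well, whereas ABCC4 was lower at an unadjusted p-value under 0.05 and with the replicate number as a block, as given below. Among all 12854 tested genes 25.8% were higher and 24.7% lower by the same rule, which is 50.5% in either direction. A rise over 2-fold was found for 2 of these 7 genes and for 8.11% of all tested genes, and a fall over 2-fold for 0 of the 7 and for 5.2% of all. The median log2 fold change over the 7 tested genes was 0.71, and over all tested genes it was 0.02. These counts describe genes that were picked with earlier results known.

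**Figure D1:**
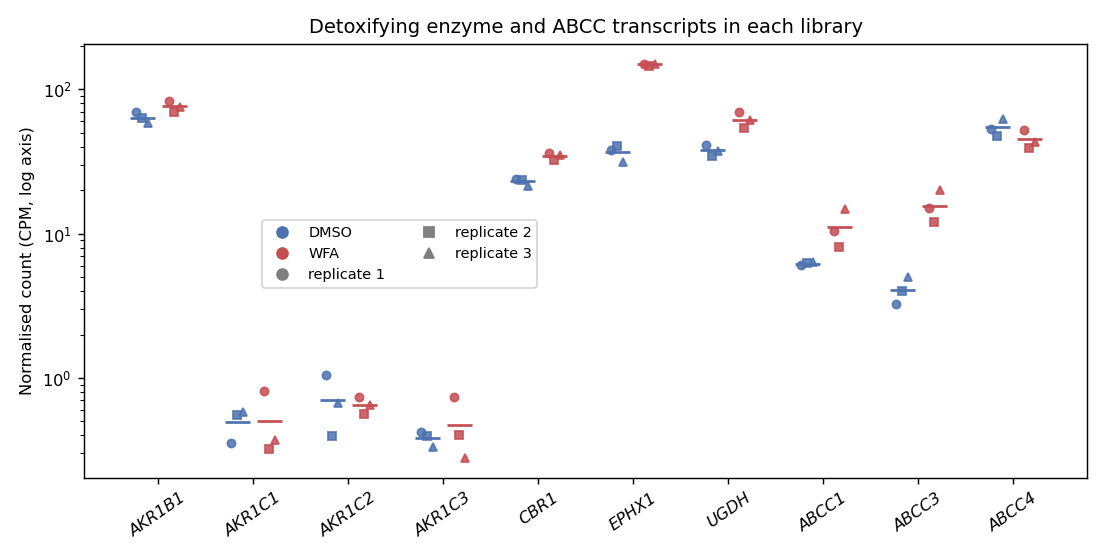
Normalised counts (CPM, log axis) of the 10 genes in each of the 6 libraries, with DMSO in blue, WFA in red, a symbol for each replicate and a bar at each group mean. EPHX1 and ABCC3 stand far apart between the groups, ABCC4 overlaps, and the 3 AKR1C genes lie at or below 1.06 CPM in every library.

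The libraries held between 11006035 and 13872810 counts. CPM, the count scaled to a TMM-adjusted library total, compares libraries for 1 gene. Levels of different genes are compared only as CPM per kilobase of the longest GENCODE 29 transcript (RPKM). Monocytic identity was checked with 12 markers, all of which were detected and tested, led by LYZ with at least 16905 counts. CD14 was low, with 24 to 88 counts. The erythroid markers HBA1, HBB and ALAS2 had 0 counts in every library, and the T cell markers CD3D and CD3E had at most 3. The 7 T and NK cell markers summed to 6.83 to 10.5 CPM in DMSO and 7.03 to 12.4 CPM in WFA, most of it NKG7 with 70 to 120 counts. The 7 stromal and endothelial markers summed to 356 to 402 CPM in DMSO and 318 to 336 CPM in WFA, most of it PECAM1 with 3250 to 5065 counts, a gene that monocytes also express. In that list COL1A1 had 3 to 135 counts, CDH5 at most 1 and COL1A2 0. The epithelial and liver markers summed to at most 0.967 CPM and the B cell markers to at most 4.42 CPM in any library. Of the monocytic markers, 1 was higher and 5 lower with WFA, beside 25.8% and 24.7% of all tested genes. Their summed level was 2985 to 3550 CPM in DMSO and 2687 to 3474 CPM in WFA. The part of any of these marker lists in the results below was not tested. In bulk RNA a lower level per cell and fewer expressing cells cannot be told apart. Libraries that carry the same replicate number tended weakly to deviate in the same direction (correlations of 0.22 to 0.33 across genes), so values are also given within each pair.

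The sequences bear on which reads can be assigned. AKR1C1, AKR1C2 and AKR1C3 lie side by side on chromosome 10, and their coding sequences of 972 bases are close copies of one another. AKR1C1 differed from AKR1C2 at 19 bases (98.0% identity) and from AKR1C3 at 83 bases (91.5%), and AKR1C2 from AKR1C3 at 87 bases (91.0%). The first 60 coding bases are shown from the GENCODE 29 transcripts, 5′ to 3′, with capitals at the 8 positions where the 3 genes are not all alike.
AKR1C1: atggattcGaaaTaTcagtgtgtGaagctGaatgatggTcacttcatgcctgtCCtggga
AKR1C2: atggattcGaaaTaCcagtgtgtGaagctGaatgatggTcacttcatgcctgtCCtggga
AKR1C3: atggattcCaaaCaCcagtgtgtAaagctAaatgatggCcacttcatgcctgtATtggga

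Of all windows of 50 bases in the longest AKR1C2 transcript, 50.8% were found in AKR1C1 transcripts, and 28.3% of the AKR1C1 windows were found in AKR1C2. For AKR1C3, 12.1% of its windows occurred in transcripts of another gene. How the authors' counting treated reads that fit more than 1 gene is not given in the sources used here, so the split of counts among the AKR1C genes is uncertain. EPHX1, ABCC1 and ABCC3 shared no window of this length with another gene, and UGDH, ABCC4 and AKR1B1 shared 0.284%, 0.604% and 2.92%. CBR1 shared 22.1%, with a noncoding gene on the opposite strand.

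Starts of transcription were taken from RefSeq (GRCh38.p14), which listed 12 windows for 8 of the 10 genes, each with 250 bases before and 50 after the start. The core of the antioxidant response element, TGACNNNGC, was searched on both strands. It occurred in 3 of these 12 windows, and in 4687 of 35116 promoter windows of all genes (13.3%). The windows with a match are shown because they belong to genes with different responses to WFA, namely EPHX1 and CBR1, which rose, and ABCC4, which did not. Each is read 5′ to 3′ on the strand of the gene, with the match in capitals.
EPHX1, chr1:225825104-225825403, plus strand, the third of its listed starts: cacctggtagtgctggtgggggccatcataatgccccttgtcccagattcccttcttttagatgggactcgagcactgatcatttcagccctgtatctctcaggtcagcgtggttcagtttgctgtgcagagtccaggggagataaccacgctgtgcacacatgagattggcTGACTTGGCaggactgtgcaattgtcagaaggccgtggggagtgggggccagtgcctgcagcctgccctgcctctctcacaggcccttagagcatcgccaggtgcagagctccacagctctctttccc
CBR1, chr21:36069774-36070073, plus strand: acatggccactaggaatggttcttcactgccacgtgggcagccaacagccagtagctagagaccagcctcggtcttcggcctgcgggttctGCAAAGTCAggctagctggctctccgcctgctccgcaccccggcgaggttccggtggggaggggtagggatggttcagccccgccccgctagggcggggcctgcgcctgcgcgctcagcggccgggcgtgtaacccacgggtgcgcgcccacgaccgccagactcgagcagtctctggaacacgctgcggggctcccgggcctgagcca
ABCC4, chr13:95301402-95301701, minus strand: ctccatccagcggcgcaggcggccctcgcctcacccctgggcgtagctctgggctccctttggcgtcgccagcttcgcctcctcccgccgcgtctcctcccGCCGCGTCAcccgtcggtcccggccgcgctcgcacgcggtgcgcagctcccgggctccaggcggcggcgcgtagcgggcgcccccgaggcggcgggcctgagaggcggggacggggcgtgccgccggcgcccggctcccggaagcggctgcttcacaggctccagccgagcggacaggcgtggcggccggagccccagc

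The match lay 78 bases before the start in EPHX1, 159 in CBR1 and 149 in ABCC4. It read in the direction of the gene in EPHX1 and in the reverse direction in CBR1 and ABCC4. A match of letters does not show that a factor binds there, and the counts do not tell which EPHX1 start was used.

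EPHX1 (chromosome 1, 225810092 to 225845563, plus strand, hg38) encodes the enzyme of the endoplasmic reticulum that opens epoxides with water to give diols. It had 38.2, 40.8 and 31.4 CPM in DMSO replicates 1, 2 and 3, and 151, 146 and 149.6 CPM in the WFA replicates. The groups were far apart, and the WFA libraries differed little from one another, at 149 ± 2.31 CPM (SD, n = 3) against 36.8 ± 4.86 CPM (SD, n = 3) in DMSO. This is a 4.04-fold rise (95% interval 3.48 to 4.69), or 2.01 ± 0.10 on the log2 scale (SE, adjusted p = 9.82e-10 in edgeR). Within the pairs it was 1.98, 1.84 and 2.25 on the log2 scale. Of all tested genes, 1.85% had a higher log2 fold change. On the opposite strand EPHX1 overlaps an antisense gene by 4681 bases and TMEM63A by 28 bases. The antisense gene was not found among the counted genes under its GENCODE name. Without strand, reads from bases shared with either gene cannot be told apart. TMEM63A had a value of -0.04 on the same scale (adjusted p = 0.853 in edgeR).

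UGDH (chromosome 4, 39498755 to 39528311, minus strand) makes UDP-glucuronic acid, the sugar donor for glucuronide conjugates and for hyaluronan. Its level was 41.1, 34.8 and 37.3 CPM with DMSO, and 69.4, 54.4 and 61.2 CPM with WFA. Each WFA library lay above each DMSO library, and replicate 1 was the highest in both groups. The rise was 1.63-fold (95% interval 1.39 to 1.92), or 0.71 ± 0.11 on the log2 scale (SE, adjusted p = 7.56e-05 in edgeR), and 0.76, 0.64 and 0.71 within the pairs. UGDH-AS1, which overlaps it by 293 bases on the other strand, had only 12 to 31 counts per library.

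CBR1 (chromosome 21, 36069941 to 36073166, plus strand) is a cytosolic enzyme that uses NADPH to reduce quinones, prostaglandins and anthracyclines. In DMSO it had 23.99, 23.7 and 21.3 CPM, and in WFA 36.3, 32.5 and 34.9 CPM. The groups did not overlap, and replicates within a group lay close together. CBR1 rose by 1.5-fold (95% interval 1.28 to 1.76), or 0.58 ± 0.11 on the log2 scale (SE, adjusted p = 0.000349 in edgeR), with 0.60, 0.45 and 0.71 within the pairs. The whole gene lies inside SETD4 on the opposite strand, and the library kit does not mark strand. All 50-base windows that the longest CBR1 transcript shared (22.1%) were found in a noncoding gene on that strand, not in SETD4. This noncoding gene overlaps CBR1 by 3226 bases and was not found among the counted genes under its GENCODE name. SETD4 had 229 to 236 counts in DMSO and 171 to 176 in WFA, or -0.29 on the log2 scale (adjusted p = 0.0662 in edgeR), so its mean was lower with WFA while that of CBR1 was higher.

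AKR1B1 (chromosome 7, 134442350 to 134459284, minus strand) is aldose reductase, which turns glucose into sorbitol and also reduces lipid aldehydes. It had 69.5, 63.3 and 58.2 CPM with DMSO and 83.2, 70.0 and 75.65 CPM with WFA. The lowest WFA library was only just above the highest DMSO library. The rise of 1.20-fold (95% interval 1.04 to 1.38) corresponds to 0.26 ± 0.10 on the log2 scale (SE, adjusted p = 0.0375 in edgeR), and to 0.26, 0.14 and 0.38 within the pairs. This call did not hold under scaling by library totals alone (0.175, edgeR adjusted p = 0.145) or in DESeq2's Wald test (adjusted p = 0.0793). It was also lost without DMSO replicate 2 (edgeR adjusted p = 0.0988), DMSO replicate 3 (0.141), WFA replicate 1 (0.141) or WFA replicate 3 (0.0615). Over all alternatives its adjusted p ran from 0.00684 to 0.145.

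AKR1C1, AKR1C2 and AKR1C3 reduce ketosteroids, and AKR1C3 also reduces prostaglandins and androgen precursors. AKR1C1 had 5, 7 and 7 counts in DMSO and 10, 4 and 4 in WFA. AKR1C2 had 15, 5 and 8 counts in DMSO and 9, 7 and 7 in WFA. AKR1C3 had 6, 5 and 4 counts in DMSO and 9, 5 and 3 in WFA. The groups overlapped for each of the 3 genes, and WFA replicate 1 held the highest WFA count each time. None passed the filter on low counts. On the opposite strand AKR1C2 overlaps an antisense gene by 1893 bases, and AKR1C2 and AKR1C3 overlap a small nucleolar RNA by 133 and 136 bases. These were not found among the counted genes under their GENCODE names.

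Fitted without that filter, the log2 fold change was 0.04 for AKR1C1 (95% interval -1.05 to 1.13), -0.15 for AKR1C2 (-1.09 to 0.79) and 0.29 for AKR1C3 (-0.88 to 1.46). The edgeR adjusted p-values were 0.972, 0.831 and 0.735. When the counts of the 3 genes were summed, which removes the question of how shared reads were split among them, the totals were 62 in DMSO and 58 in WFA, each over 3 libraries. The log2 fold change of the sum was 0.04 (95% interval -0.62 to 0.70, edgeR adjusted p = 0.929). This interval covers both a fall and a rise, so a change within it was neither shown nor excluded.

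**Figure D2:**
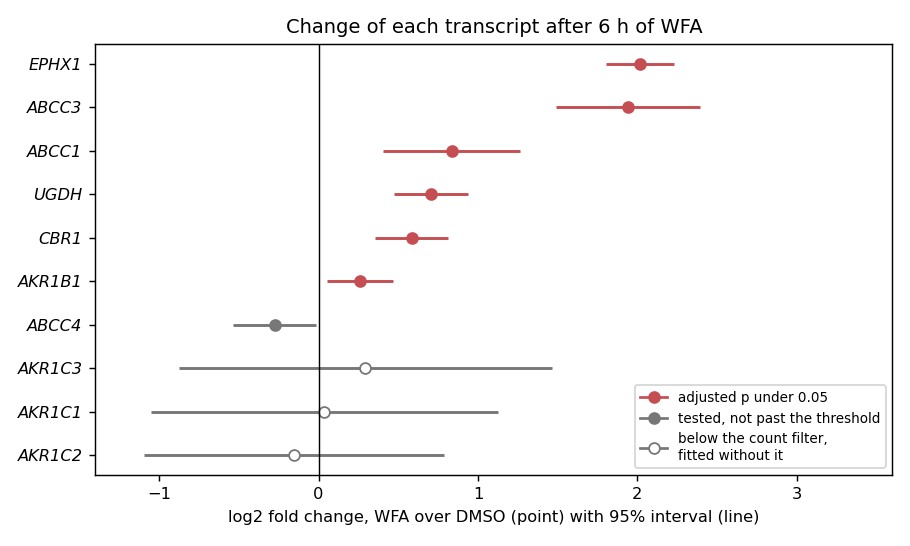
Log2 fold change of WFA over DMSO for each gene (point) with its 95% interval (line), in red for genes past an adjusted p-value of 0.05 and with open points for the AKR1C genes fitted without the filter on low counts. EPHX1 at 2.01 and ABCC3 at 1.94 lie apart from the others, and the AKR1C intervals span 0 widely.

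Of the ABCC pumps ABCC3 rose most, ABCC1 rose less, and ABCC4 did not pass the test. ABCC3 (MRP3; chromosome 17, 50634777 to 50692252, plus strand) exports glucuronides and bile acids. Its level was 3.24, 4.03 and 4.999 CPM with DMSO, and 14.95, 12.1 and 20.01 CPM with WFA. The lowest WFA library was more than double the highest DMSO library, and replicate 3 was the highest in both groups. ABCC3 rose by 3.84-fold (95% interval 2.81 to 5.26), or 1.94 ± 0.21 on the log2 scale (SE, adjusted p = 2.79e-06 in edgeR), and 2.21, 1.58 and 2.001 within the pairs.

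ABCC1 (MRP1; chromosome 16, 15949577 to 16143074, plus strand) exports glutathione conjugates, leukotrienes and anthracyclines. The DMSO libraries lay within a narrow range, at 6.05, 6.24 and 6.33 CPM, and the WFA libraries were spread more widely, at 10.5, 8.13 and 14.8 CPM. All WFA libraries were above all DMSO libraries, with replicate 3 the highest. On the opposite strand ABCC1 overlaps a processed pseudogene by 1018 bases, which was not found among the counted genes under its GENCODE name. The rise was 1.78-fold (95% interval 1.32 to 2.40), or 0.83 ± 0.20 on the log2 scale (SE, adjusted p = 0.00296 in edgeR), with 0.79, 0.38 and 1.22 within the pairs. Without WFA replicate 3 the log2 fold change was 0.585 and still passed (edgeR adjusted p = 0.0208), the highest value over its alternatives, which began at 1.12e-06.

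ABCC4 (MRP4; chromosome 13, 95019829 to 95301475, minus strand) exports cyclic nucleotides and prostaglandins. It had 53.5, 47.9 and 62.2 CPM with DMSO and 52.3, 39.4 and 43.55 CPM with WFA. The groups overlapped, since WFA replicate 1 lay above DMSO replicate 2. The log2 fold change was -0.27 ± 0.12 (SE; 95% interval -0.53 to -0.02, unadjusted p = 0.0391, adjusted p = 0.0723 in edgeR). The values within the pairs were -0.03, -0.28 and -0.52. With the replicate number as a block, ABCC4 passed at the same size (-0.27, edgeR adjusted p = 0.00733). It also passed under scaling by library totals alone (-0.36), without the filter on low counts (-0.29), and without DMSO replicate 2 (-0.37) or WFA replicate 1 (-0.395). It was smaller without DMSO replicate 3 (-0.173, edgeR adjusted p = 0.285) and without WFA replicate 2 (-0.185, edgeR adjusted p = 0.248). Its adjusted p ran from 0.00733 to 0.285 over all alternatives.

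An exact two-sided permutation test over the 6 libraries gave p = 0.1 for EPHX1, UGDH, CBR1, AKR1B1, ABCC1 and ABCC3, the smallest value that 3 libraries against 3 allow, and p = 0.2 for ABCC4. How many of all tested genes reach this smallest value was not counted. In edgeR 50.5% of all tested genes passed in either direction, so such a separation does not set these genes apart. The ratios between genes within a library were compared for 6 pairs of genes chosen after the values were known, and in each pair every WFA library lay on the same side of every DMSO library (exact permutation p = 0.1, adjusted p = 0.1). The log2 ratio of ABCC3 to ABCC4 counts went from -3.75 ± 0.258 in DMSO to -1.54 ± 0.369 in WFA (SD, n = 3 each), and that of ABCC3 to ABCC1 from -0.62 ± 0.281 to 0.51 ± 0.068. EPHX1 relative to CBR1 went from 0.67 ± 0.113 to 2.11 ± 0.059, so EPHX1 gained more than CBR1 in all 3 pairs of libraries.

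Per kilobase, ABCC4 was the most abundant of the 3 pumps in every library. Its share of their summed level was 85.4%, 82.5% and 84.6% in DMSO and 66.9%, 65.6% and 55.1% in WFA. The share of ABCC3 was 5.57%, 7.48% and 7.34% in DMSO and 20.6%, 21.7% and 27.3% in WFA, and that of ABCC1 was 9.04% ± 0.995 and 14.2% ± 2.85 (SD, n = 3 each). The groups did not overlap for any of the 3 shares (exact permutation p = 0.1). The 3 shares of a library make up a whole, so they are not separate results. A rise of ABCC3 and ABCC1 lowers the share of ABCC4 by itself, and for the level of ABCC4 the groups overlapped (exact permutation p = 0.2). Shares depend on the transcript length used. With the median length of annotated transcripts the ABCC3 share was 17.9% in DMSO and 45.1% in WFA. The ABCC4 share was 66.3% and 36.7%, so for both the direction stayed, and ABCC3 then led in WFA. The ABCC1 share was then 15.8% ± 1.58 in DMSO and 18.2% ± 2.32 in WFA (SD, n = 3 each), a gap close to its spread. Overlap of the groups was examined only with the longest transcripts.

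**Figure D3:**
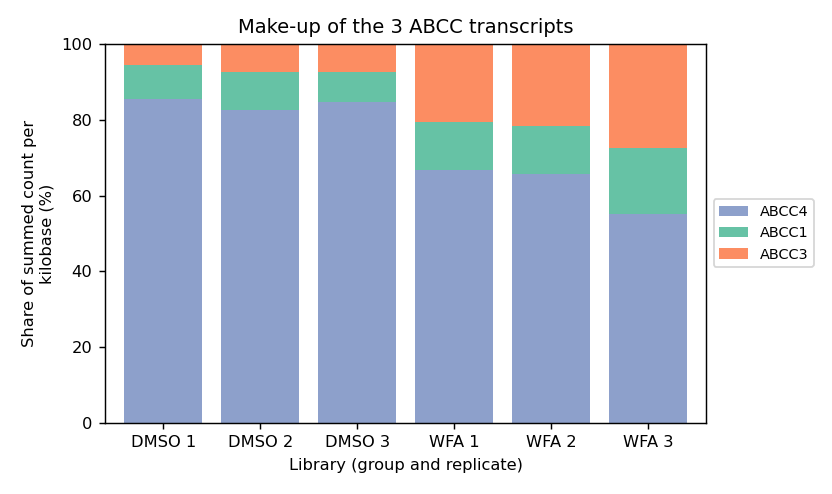
Share (%) of each pump in the summed CPM per kilobase of ABCC1, ABCC3 and ABCC4, by library, with the shares of a library stacked in 1 bar. ABCC3 takes 5.57% to 7.48% in the DMSO libraries and 20.6% to 27.3% in the WFA libraries.

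The levels per kilobase spanned a wide range. In DMSO it was AKR1B1 (33.0 ± 2.92 RPKM), EPHX1 (20.6 ± 2.72), CBR1 (12.0 ± 0.757), UGDH (11.7 ± 0.979), ABCC4 (8.84 ± 1.17), ABCC1 (0.941 ± 0.0218) and ABCC3 (0.715 ± 0.154; SD, n = 3 each). CBR1 and UGDH overlapped between libraries, whereas the other neighbours in this order did not. In WFA EPHX1 led with 83.2 ± 1.29 RPKM, followed by AKR1B1 (39.5 ± 3.44), UGDH (19.2 ± 2.35), CBR1 (17.95 ± 1.00), ABCC4 (7.30 ± 1.07), ABCC3 (2.74 ± 0.702) and ABCC1 (1.69 ± 0.513). Here UGDH overlapped CBR1, and ABCC3 overlapped ABCC1. The AKR1C genes came last in both groups, with no mean above 0.261 RPKM. This order rests in part on the length chosen. With the median length of annotated transcripts AKR1B1 was first in both groups (103 RPKM in DMSO and 123 in WFA), UGDH was second in DMSO (65.0) and EPHX1 second in WFA (117).

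The genes with profiles nearest to that of EPHX1 over the 6 libraries were PPME1, HSPE1 and DOK2, at Euclidean distances of 0.195, 0.204 and 0.21 between centred log2 CPM values. Their log2 fold changes were 1.94, 1.92 and 2.02. Nearest to ABCC4 were TRIM37, WDR63 and PDIK1L, at distances of 0.106, 0.111 and 0.118, and their edgeR adjusted p-values lay between 0.069 and 0.209. These are descriptions over 6 libraries among 12816 genes with a count in every library.

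The other genes of these pathways were read from 8 lists written from general knowledge. Of their 117 genes 64 were tested, of which 21 rose and 8 fell with WFA (adjusted p under 0.05 in edgeR), beside 25.8% and 24.7% of all 12854 tested genes. The replicate block gave 13 lower genes in these lists and 3708 among all tested genes, against 3178 without it. Scaling by library totals alone gave 14 and 3875. Among the other aldo-keto reductases 3 of 9 were tested and AKR1A1, which reduces aldehydes broadly, was the only one past the threshold, at -0.32 ± 0.10 on the log2 scale (SE, adjusted p = 0.0158 in edgeR). With the replicate block AKR7A2 was lower as well (-0.265, edgeR adjusted p = 0.0102). AKR1B10 and AKR1C4 had at most 2 and 0 counts in any library. Of 3 tested epoxide hydrolases besides EPHX1, namely EPHX2, EPHX4 and LTA4H, 0 passed, and with the replicate block LTA4H, which makes leukotriene B4, was lower (-0.19, edgeR adjusted p = 0.0284). EPHX2, the soluble epoxide hydrolase, stood at 0.03 ± 0.15 on the log2 scale (SE, adjusted p = 0.873 in edgeR).

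Other carbonyl and quinone reductases held 6 higher and 1 lower gene among 14 tested, beside 25.8% and 24.7% of all tested genes. Their median was 0.095 on the log2 scale. With the replicate block CBR4 was lower too (-0.28, edgeR adjusted p = 0.0293). The quinone reductases CRYZ, NQO1 and NQO2 rose by 2.42, 1.83 and 1.24 on the log2 scale (adjusted p = 7.73e-09, 2.20e-07 and 8.64e-06 in edgeR). DHRS9, which oxidises retinol and steroids, fell by 1.21 on the log2 scale (edgeR adjusted p = 1.20e-05). Of the glucuronidation genes, only 7 of 28 were tested, and 19 had no count in any library. SLC35D1, which carries UDP-glucuronic acid into the endoplasmic reticulum, rose by 0.95 ± 0.10 on the log2 scale (SE, adjusted p = 1.62e-06 in edgeR). UXS1, which uses up UDP-glucuronic acid to make UDP-xylose, fell by 0.30 on the log2 scale (edgeR adjusted p = 0.0130). UGT8, which attaches galactose to ceramide, rose by 0.71 (adjusted p = 0.000344 in edgeR). Among the other ABCC genes 3 of 9 were tested, and ABCC5 rose by 0.39 on the log2 scale (adjusted p = 0.0140 in edgeR), whereas ABCC2 (-0.001) and ABCC10 (-0.03) did not pass.

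**Figure D4:**
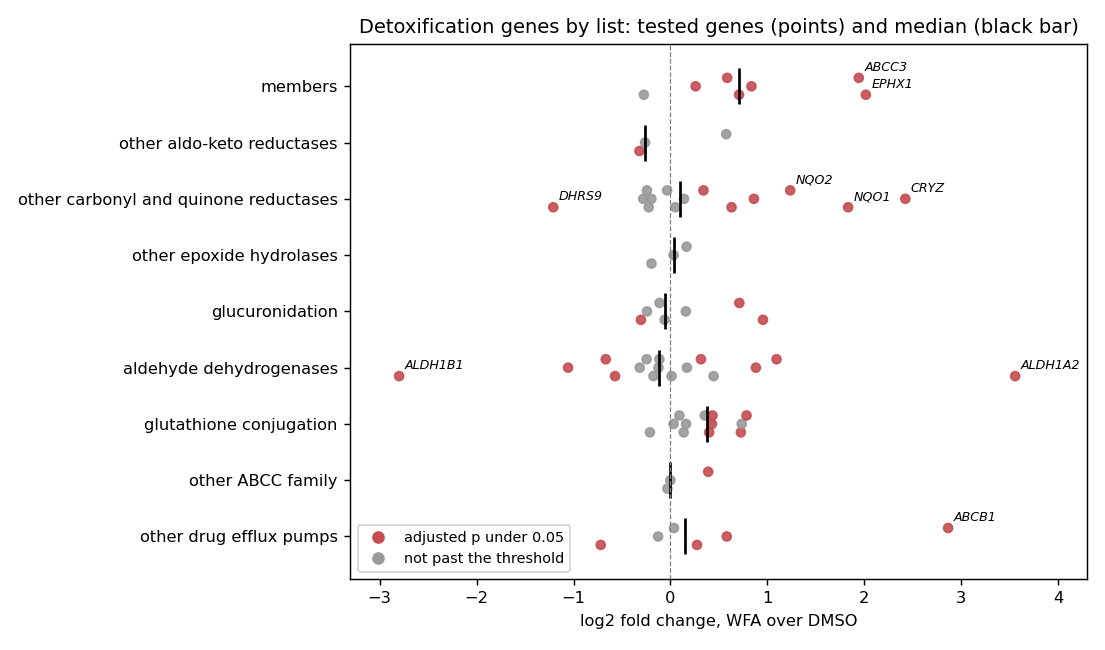
Log2 fold change of WFA over DMSO for each tested gene (points, red past an adjusted p-value of 0.05) by list, with the list's median as a black bar. The 7 tested members have a median of 0.71, and the other lists lie between -0.26 and 0.38.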

How the data were processed

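RNA of 6 THP1 cultures was sequenced with Illumina TruSeq RNA v2 libraries. The authors deposited raw counts of reads per gene. The submitters' processing notes name bcl2fastq 2.19, Trimmomatic, Bowtie2, Picard, featureCounts, DESeq2 and hg38; annotation, strand and multi-mapping settings are not given in the sources used here. The scaled counts and the authors' own comparison (fold changes, p-values, dispersions) in the same table were not used. Groups and replicate numbers come from the sample labels, in which same-numbered libraries share a number written like a date. Their deviations from the group means correlated across genes by 0.22, 0.33 and 0.25, against -0.26 to 0.00 for other pairs. Precision depends on the totals of 11006035 to 13872810 counts and on the spread between replicates. Intervals of counts cover counting error only.

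In R 4.3.3, edgeR 4.0.16 was fitted on all genes with TMM scaling, filterByExpr (minimum count 10), the quasi-likelihood test without a block, and Benjamini-Hochberg adjustment over 12854 genes at a threshold of 0.05. Other library scalings and filters, a replicate block, a robust fit, DESeq2 1.42.0, summed AKR1C counts, median transcript lengths and each library left out were tried. The block leaves 2 residual degrees of freedom in place of 4, and its estimated prior degrees of freedom were infinite. The fits were tested on simulated data. Lengths, overlaps and coding sequences come from GENCODE 29, promoters from RefSeq. Named genes are all 10 members, up to 3 genes per list and direction with the smallest p past the threshold, and the 3 nearest profiles of the member with the largest rise and of the one with the largest fall. EPHX2, AKR1B10, AKR1C4, AKR7A2, EPHX4, LTA4H, CBR4, ALDH3B1, GSTM2, GSTM4, GSTK1, ABCC2, ABCC10, the cell type markers and the overlapping genes were named outside this rule. Members, lists and rules were chosen with earlier results of these data known. Of the genes this rule selects, 1 is not reported here.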

Additional observations from a re-analysis of the deposited data

How the results depend on the processing

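The log2 fold changes of EPHX1 (1.91 to 2.08), ABCC3 (1.735 to 2.11), UGDH (0.613 to 0.792), CBR1 (0.501 to 0.629) and ABCC1 (0.585 to 1.02) kept their direction and stayed past the threshold under all 14 alternatives. AKR1B1 lost its call under 6 alternatives and ABCC4 gained one under 5. With each library left out, 5 to 6 of the 10 genes were higher and 0 to 1 lower, and 19 to 22 of the other pathway genes were higher and 6 to 12 lower. The main fit tested 7 of the 10 genes and 64 of the 117 other pathway genes. Among all 13021 to 13078 genes tested in these fits, 2942 to 3176 were higher and 2815 to 3016 lower. The number of the 10 genes that were lower went from 0 to 1, by ABCC4, with the replicate block, with scaling by library totals alone and without the filter on low counts. Other pathway genes that were lower numbered 13 with the replicate block and 14 with total counts, against 8. The replicate block changed no other call among the 10 genes. Total counts moved the median of all genes from 0.02 to -0.06, which lowers every fold change alike. AKR1B1 and ABCC4 kept their direction under all alternatives, and why they crossed the threshold under the other settings was not tested. At 3 to 15 counts per library, depth limits the AKR1C genes, as does their shared sequence.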

Other observations

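Of 16 tested aldehyde dehydrogenases 4 were higher and 4 lower with WFA, close to the 25.8% and 24.7% of all tested genes. With the replicate block ALDH3B1 was lower too (-0.25, edgeR adjusted p = 0.0235). ALDH1A2, which makes retinoic acid, had 1, 3 and 2 counts in DMSO and 27, 18 and 23 in WFA, a ratio of 12.4 (95% counting interval 5.43 to 35.1). ALDH1B1, a mitochondrial enzyme, had 110.2 ± 1.64 CPM in DMSO and 15.8 ± 3.98 CPM in WFA (SD, n = 3 each), which is -2.80 on the log2 scale (adjusted p = 8.66e-10 in edgeR). ALDH4A1, which degrades proline, and ALDH1L2, of mitochondrial folate metabolism, rose with log2 fold changes of 1.09 and 0.88. ALDH18A1, which makes proline, and ALDH5A1, which degrades GABA, fell by 0.67 and 0.57 on the log2 scale.

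Of 12 tested glutathione transferases 5 were higher and 0 lower, beside 25.8% and 24.7% of all tested genes. With the replicate block 7 were higher, GSTM2 and GSTM4 in addition, and GSTK1 was lower. Under that block 3877 of all 12854 tested genes were higher and 3708 lower. GSTM3, MGST1 and GSTA4 rose by 0.73, 0.43 and 0.78 on the log2 scale. Among 6 other tested genes linked to drug efflux, not all of them pumps, ABCB1 (P-glycoprotein) rose most. It had 2.25 ± 0.792 CPM in DMSO and 16.4 ± 4.01 CPM in WFA (SD, n = 3 each). Its rise was 2.86 ± 0.25 on the log2 scale (SE, adjusted p = 2.79e-07 in edgeR), against 1.94 for ABCC3. MVP, the major vault protein, rose with a log2 fold change of 0.58. ABCB4, a phospholipid transporter next to ABCB1 in the genome, fell by 0.72 on the log2 scale.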
